A study of Mus musculus with 2 samples.

Results

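Of the cytochrome P450 and detoxification enzyme genes measured in fibroblasts given FGF2, Cyp1b1 and the neighbouring glutathione S-transferase genes Gstm2 and Gstm1 had lower signals than in control fibroblasts, while the transferase gene Gstp2 had a higher one. The genes were chosen by name as members of the Cyp, Gst, Aldh, Akr, Ugt, Sult and Adh families, each represented by its brightest probe. Such a symbol is carried by 206 protein-coding genes of the RefSeq table, of which 67 had a probe with a gene name here and 21 were detected on at least 1 of the 2 arrays, out of 3005 named detected genes in all. The other 139 genes had no named probe, and whether probes left without a name carry them was not determined, so they are not analysed here. Both cultures were NMRI mouse embryonic fibroblasts, cells from embryos of an outbred stock, that had been inactivated with mitomycin C, which crosslinks DNA and stops division, and plated again on gelatine, with 55000 cells to the square centimetre. The FGF2 culture was kept for 24 h in a basic medium for human embryonic stem cells, made with serum replacement and 40 ng/ml of fibroblast growth factor 2. The control culture had the same medium for 24 h without FGF2. Each culture was measured on 1 bead array, so no spread between cultures is known, no p-value is given for any difference, and precision is limited by having a single array in each group. In bulk RNA, fewer cells of a type and less RNA per cell cannot be told apart.

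Detoxification of foreign and endogenous lipophilic compounds is usually described in steps. Cytochromes P450, heme enzymes fed with electrons by P450 oxidoreductase, put a reactive oxygen group on the substrate, and aldehyde, alcohol and aldo-keto enzymes oxidise or reduce carbonyls. Glutathione S-transferases, UDP-glucuronosyltransferases and sulfotransferases then attach a polar group that allows export. Many of these genes are known mainly from liver, whereas Cyp1b1 is the P450 typical of mesenchymal cells, including embryo fibroblasts, where the aryl hydrocarbon receptor (AhR) drives it.

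The FGF2 array had 7424 detected probes (30.9% of 24044), and the control array had 7599 (31.6%). A probe was taken as detected at a detection score of at least 0.99, and the lowest deposited signal among detected probes was 184.9 with FGF2 and 194.6 in control. Signals are fluorescence intensities that include background. Ratios are FGF2 over control on the log2 scale after quantile normalization, with values under the lowest detected level set to it, and the error after ± is the combined bead error of both arrays. That error had a median of 0.076 and a maximum of 0.094 over the 21 genes and leaves out differences between cultures.

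Of the 21 genes, 2 had signals lower by 2-fold or more with FGF2 (9.52%), and 0 had signals higher by that much. Among all 3005 named detected genes, 2.6% were lower and 1.46% were higher by 2-fold or more. At 1.5-fold, 3 genes were lower and 1 was higher, against 6.79% lower and 5.29% higher among all named detected genes. Of the other 17 genes, 12 were detected on both arrays and lay within 1.5-fold, while 5 were detected on 1 array only, where a ratio is a bound or cannot be given. Over the 21 genes the median log2 ratio was 0.013, against 0.028 over all named detected genes. That median is the value of Cyp2j9, a gene detected in control only for which no fold can be given. Over the 16 genes detected on both arrays the median was 0.16, against 0.040 over all named genes detected on both. A single gene is 4.76% of the 21, so the counts are read as differences of 4 single genes and not as a shift of the group. Of the 21 genes, 16 were detected on both arrays, 4 on the control array only and 1 on the FGF2 array only.

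**Figure D1:**
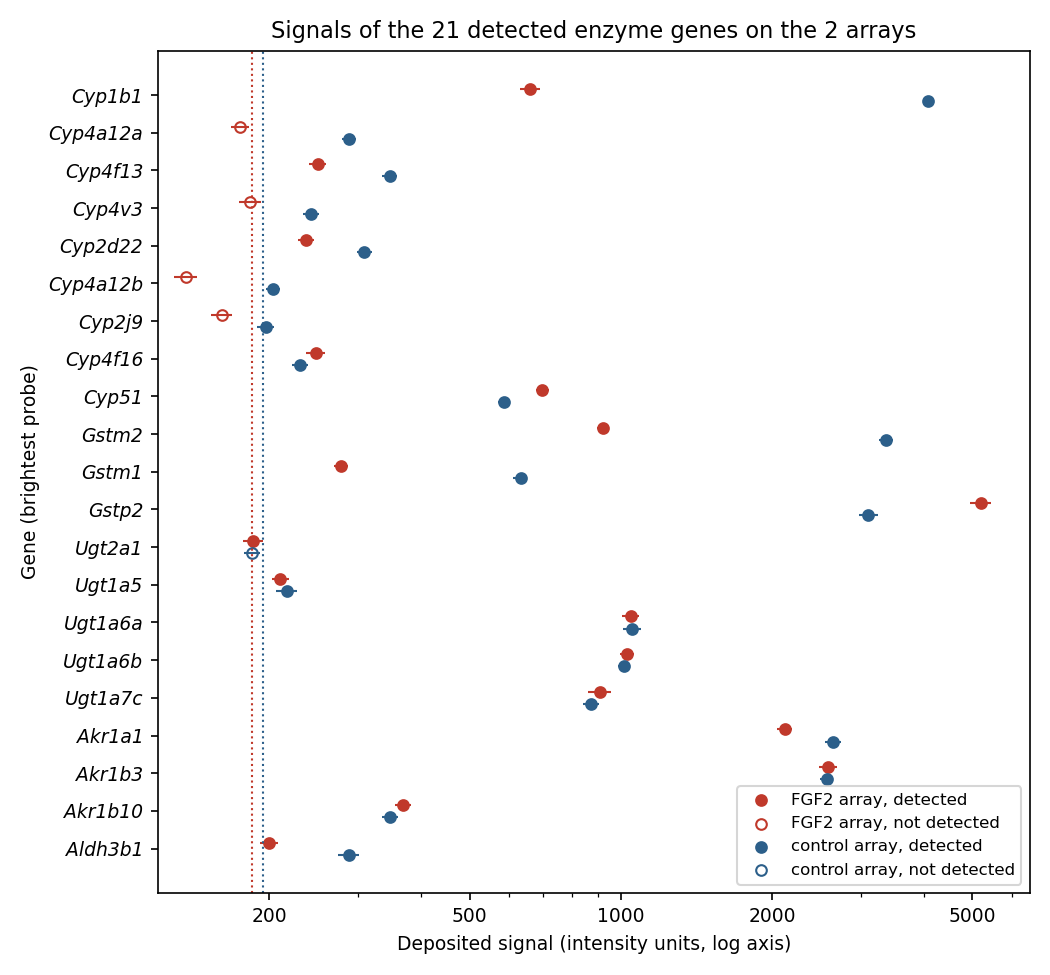
Deposited signal (x axis, intensity units, log scale) of the 21 detected genes, with the FGF2 array above the control array in each row. Bars are the deposited bead standard deviations, open circles are not detected, and dotted lines mark the lowest detected signal of each array (184.9 with FGF2, 194.6 in control). The widest gap is that of Cyp1b1, at 660.0 with FGF2 and 4083.3 in control.

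Cyp1b1 (scl0013078.2_259-S), whose enzyme oxidises estradiol, retinoids and polycyclic aromatic hydrocarbons, had a deposited signal of 660.0 with FGF2, against 4083.3 in control, with bead standard deviations of 29.4 and 95.6. Normalized, this was 5.38-fold lower (log2 ratio −2.43 ± 0.073). It was the 10th lowest ratio among the 3005 named detected genes. Both signals lay well above the lowest detected ones. The ratio lay between −2.63 and −2.39 under the 9 alternative ways of processing. Of these, 6 could change it, because the others concern detection or further probes. None of them subtracted background without also scaling the arrays. In the authors' value table, from which background had been subtracted, Cyp1b1 had 674.0 with FGF2 and 3947.9 in control, which is 5.86-fold lower. That table also holds FGF2 values multiplied by 1.28, which makes this fold smaller than subtraction alone would. Its promoter is shown because it is the gene with the widest difference and a known AhR target. The window covers the 250 bases before the start (RefSeq, GRCm38.p6), with the core of the xenobiotic response element, GCGTG or its complement CACGC, in capitals.
Cyp1b1 promoter, chr17:79715062-79715311, minus strand: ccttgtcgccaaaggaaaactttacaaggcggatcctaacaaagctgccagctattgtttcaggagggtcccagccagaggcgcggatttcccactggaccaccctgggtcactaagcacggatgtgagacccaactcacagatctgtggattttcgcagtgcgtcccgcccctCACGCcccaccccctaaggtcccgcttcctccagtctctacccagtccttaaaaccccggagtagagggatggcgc
The window holds 1 such core, 76 bases before the start. Of 32851 promoter windows of this length 28.2% hold at least 1 on either strand, so this short match is common.

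Of the 8 other P450 genes, 4 were detected on both arrays, and these lay within 1.5-fold as normalized here. In the authors' value table Cyp51 and Cyp4f16 passed 1.5-fold higher, at 0.68 and 0.63. Cyp51, the lanosterol demethylase of cholesterol synthesis and the P450 with the highest ratio, had 697.2 with FGF2 and 586.1 in control (log2 ratio 0.50 ± 0.058). Its ratio stayed above 0 under all 9 alternatives, between 0.25 and 0.68. Cyp4f16, of a subfamily that hydroxylates fatty acids and eicosanoids, had 247.3 with FGF2 and 230.1 in control (0.27 ± 0.084). Its second probe had 186.2 with FGF2 and 207.5 in control (−0.046 ± 0.082). That ratio lies within its bead error and near the lowest detected signals, so it gives no direction. Cyp4f13, of the same subfamily, had 249.7 with FGF2 and 346.8 in control (−0.28 ± 0.074). Cyp2d22, of the subfamily known for drug oxidation, had 236.5 with FGF2 and 308.9 in control (−0.21 ± 0.073). All 4 signals of these last 2 genes lie within 2-fold of the lowest detected signal, where a ratio of signals that still hold background understates a difference.

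A further 4 P450 genes were detected in control only, so their ratios are bounds. Cyp4a12a, which hydroxylates arachidonic acid, had 175.0 with FGF2, not well above background, and 288.0 in control, and was at least 1.41-fold lower with FGF2. Its ratio passed 1.5-fold under 3 of 7 alternatives and reached −0.64 with signals as deposited. With a detection minimum of 0.95, where it was −0.59, the FGF2 signal counts as detected, so that value is not a bound. Cyp4v3, the mouse counterpart of the human fatty acid hydroxylase gene CYP4V2, had 183.1 with FGF2 and 242.3 in control, at least 1.20-fold lower with FGF2. Cyp4a12b had 136.5 with FGF2 and 203.7 in control, at least 1.02-fold lower. Cyp4a12a and Cyp4a12b are near-identical copies, and their probes may not tell them apart. Cyp2j9, of a subfamily of arachidonic acid epoxygenases, had 160.6 with FGF2 and 196.6 in control. No fold can be given for Cyp2j9. After normalization its control value, 190.0, lies under the lowest detected level of the FGF2 array, 191.7.

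Glutathione S-transferases join glutathione to electrophiles. Of 20 such genes 7 had a named probe and 3 were detected. All 3 passed 1.5-fold, and they did not share a direction. Among all named detected genes 6.79% were lower and 5.29% higher by that much. Gstm2 (scl014863.1_325-S), of the mu class, had 920.3 with FGF2, against 3363.9 in control, with bead standard deviations of 25.7 and 108.1. It was 3.09-fold lower (log2 ratio −1.63 ± 0.061), the 31st lowest ratio of the 3005 genes. Its second probe, also detected on both arrays, had 266.9 with FGF2 and 766.8 in control (−1.31), the same direction on a dimmer spot. Under the 9 alternatives Gstm2 lay between −1.87 and −1.47, always at least 2-fold lower.

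Gstm1 (scl014862.2_242-S), also of the mu class, had 277.1 with FGF2, against 631.3 in control. The ratio was −0.97 ± 0.065, or 1.97-fold lower, just short of 2-fold. It passed 2-fold under 3 of the 6 alternatives that change its value, at −1.42 in the authors' value table. Its FGF2 signal of 277.1 compares with 184.9 for the lowest detected one. Its second probe was not detected on either array, at 90.5 with FGF2 and 107.1 in control. In the RefSeq table Gstm2 and Gstm1 stand next to each other among the 7 Gstm genes of chromosome 3. Gstm3, on the other side of Gstm2, was not detected. Mu-class genes are similar in sequence, so how far each probe reads only its own gene was not tested.

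Gstp2 (scl0014869.1_77-S), of the pi class, had 5197.4 with FGF2, against 3105.6 in control, with bead standard deviations of 243.1 and 132.9. It was 1.88-fold higher (0.91 ± 0.092), the 64th highest ratio of the 3005 genes. Under the alternatives it lay between 0.74 and 1.12 and passed 2-fold only in the authors' value table, where it was 2.18-fold higher. Less the median of all genes in that table, it was at 0.996 on the log2 scale (0.88 in the quantile normalized values). Pi-class genes are near-identical copies in the mouse, so the probe may read more than 1 gene. Gstp2 has a single probe here.

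The promoters of the 3 transferase genes are shown because the neighbouring Gstm genes had lower signals and Gstp2 a higher one. Each window covers the 250 bases before the start (RefSeq, GRCm38.p6). Capitals mark every match on either strand to GCGTG, to the TATA box TATAAA, to the AP-1 site TGAGTCA, which Fos and Jun proteins bind, and to the antioxidant response element core TGACNNNGC, known from Gst genes.
Gstm2 promoter, chr3:107986421-107986670, minus strand: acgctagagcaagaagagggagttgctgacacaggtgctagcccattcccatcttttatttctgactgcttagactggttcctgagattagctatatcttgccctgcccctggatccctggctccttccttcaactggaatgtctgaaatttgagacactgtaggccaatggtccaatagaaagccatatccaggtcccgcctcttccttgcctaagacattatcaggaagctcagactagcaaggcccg
Gstm1 promoter, chr3:108017819-108018068, minus strand: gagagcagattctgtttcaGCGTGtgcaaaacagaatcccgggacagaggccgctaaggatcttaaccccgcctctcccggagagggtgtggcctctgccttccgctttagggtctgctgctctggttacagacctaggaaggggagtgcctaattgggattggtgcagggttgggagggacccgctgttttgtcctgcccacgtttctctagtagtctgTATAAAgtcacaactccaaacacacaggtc
Gstp2 promoter, chr19:4042222-4042471, minus strand: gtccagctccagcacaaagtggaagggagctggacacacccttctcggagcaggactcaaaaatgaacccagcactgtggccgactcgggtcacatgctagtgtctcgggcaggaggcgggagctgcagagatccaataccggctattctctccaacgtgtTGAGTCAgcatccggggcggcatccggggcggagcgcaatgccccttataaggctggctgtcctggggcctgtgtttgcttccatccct
The Gstm2 window holds no such match. The Gstm1 window, the one of 2 listed starts that lies further downstream, holds GCGTG 231 bases and TATAAA 30 bases before the start. The Gstp2 window holds TGAGTCA 89 bases before the start. Of all 32851 windows 4.46% hold the AP-1 site, 12.4% the TATA box and 10.2% the antioxidant core. Over the 17 windows of 16 of the 21 genes, GCGTG was found in 8 (28.2% of all windows hold it), the AP-1 site and the TATA box in 2 each and the antioxidant core in 0. The windows of the 2 Gstm1 starts overlap and hold the same GCGTG, so the 8 windows belong to 7 genes. Matches describe letters, not binding.

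**Figure D2:**
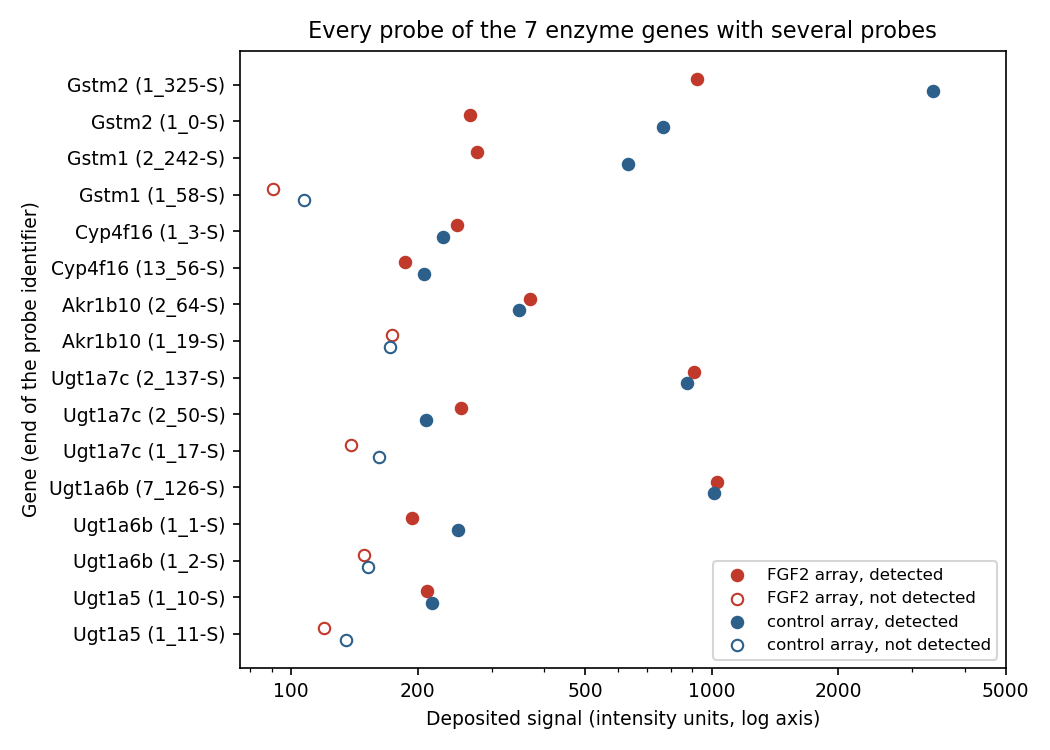
Deposited signal (x axis, intensity units, log scale) of every probe of the 7 genes with several probes, with the FGF2 array above the control array and open circles not detected. Both Gstm2 probes are lower with FGF2, while the second probe of Ugt1a6b lies on the other side of control from the first after normalization (−0.22). The second probe of Cyp4f16, at −0.046, lies within its bead error of 0.082.

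UDP-glucuronosyltransferases attach glucuronic acid, those of the Ugt1a locus to phenols, bilirubin and steroids. The 5 detected genes had ratios between 0.031 and 0.33. Ugt1a6a had 1047.1 with FGF2 and 1052.8 in control (0.26 ± 0.084). Ugt1a6b had 1030.1 with FGF2 and 1013.7 in control (0.29 ± 0.060). Ugt1a7c had 908.0 with FGF2 and 871.8 in control (0.33 ± 0.094). Deposited signals were thus nearly equal on both arrays, and without scaling the ratios of the 3 genes were −0.0078, 0.023 and 0.059.

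Genes of the Ugt1a locus have their own first exons and share the rest, and 7 of 9 Ugt1a genes in the RefSeq table end at the same base. Ugt1a6a and Ugt1a7c are among the 7, while the listed end of Ugt1a6b is shared with Ugt1a8. A listed end does not show which exons a probe reads. Whether the probes of Ugt1a6a, Ugt1a6b and Ugt1a7c read shared exons, and so are not separate measurements, was not tested. Other probes named for the same genes were dimmer and less alike. A second Ugt1a6b probe had 193.8 with FGF2 and 249.7 in control (−0.22), and a second Ugt1a7c probe had 253.2 with FGF2 and 209.3 in control (0.43). Ugt1a5 had 210.3 with FGF2 and 216.4 in control (0.10 ± 0.090). Ugt2a1, known from olfactory epithelium, had 185.6 with FGF2 and 184.9 in control, was detected with FGF2 only and was at least 1.02-fold higher, which is no more than its bead error.

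Aldo-keto reductases, which reduce sugars and aldehydes with NADPH, differed by less than 1.5-fold. Akr1a1, the aldehyde reductase, had 2114.8 with FGF2 and 2638.2 in control (−0.12 ± 0.074). Akr1b3, the aldose reductase of the polyol pathway, had 2583.7 with FGF2 and 2567.0 in control (0.22 ± 0.072). Akr1b10, of the same subfamily, had 369.0 with FGF2 and 347.4 in control (0.32 ± 0.074). Its second probe was not detected, at 173.3 with FGF2 and 171.5 in control. Without scaling the ratios of Akr1a1, Akr1b3 and Akr1b10 were −0.32, 0.0094 and 0.087. In the authors' value table that of Akr1a1 was 0.017. Aldh3b1, an aldehyde dehydrogenase that acts on lipid aldehydes, had 199.4 with FGF2 and 287.3 in control (−0.36 ± 0.093). In the authors' value table it was 1.78-fold lower, with 85.4 with FGF2 and 151.9 in control.

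**Figure D3:**
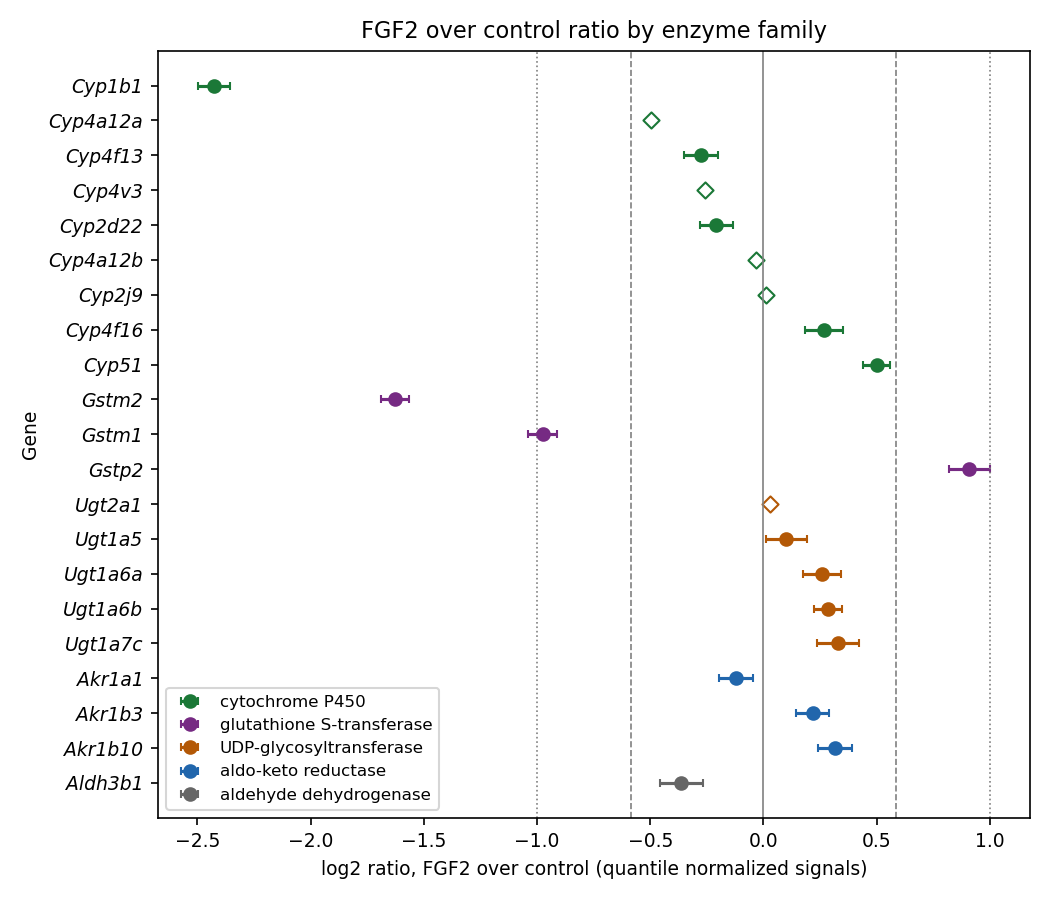
Log2 ratio of FGF2 over control (x axis) of the 21 genes, coloured by family, with the combined bead error as bars. Open diamonds are bounds for genes detected on 1 array, dashed lines mark 1.5-fold and dotted lines 2-fold. Cyp1b1 at −2.43 and Gstm2 at −1.63 lie past the lower 2-fold line, Gstm1 at −0.97 just inside it and Gstp2 at 0.91 just inside the upper one.

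The other 46 genes with a named probe were not detected, with signals between 97.1 and 179.5 on the FGF2 array and between 106.4 and 188.7 on the control array. They include 25 P450 genes. Among these were the liver drug-metabolising enzymes Cyp3a11, Cyp2c29, Cyp2c37 and Cyp2a5, the fatty acid hydroxylase Cyp4a10, Cyp11a1, which starts steroid synthesis, and Cyp27b1, which activates vitamin D. The alpha-class transferases Gsta1 and Gsta2, Gstm3 and Gstt2 were also not detected. The same held for 9 Ugt genes, Ugt1a1, the bilirubin transferase, among them, for Aldh1a1, Aldh3b3, Aldh8a1, Akr1c20 and Akr1e1, for both sulfotransferase genes with a named probe (Sult1b1 and Sult2a1) and for Adh5. At this signal a transcript below the detection level cannot be told from background. Just inside the detection limit were Ugt2a1 with a score of 0.9903 and Cyp2j9 with 0.993. Just outside were Aldh1a1 with 0.982, at 150.4 with FGF2 and 188.7 in control, and Ugt2b35 with 0.976, at 175.7 with FGF2 and 184.8 in control.

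**Figure D4:**
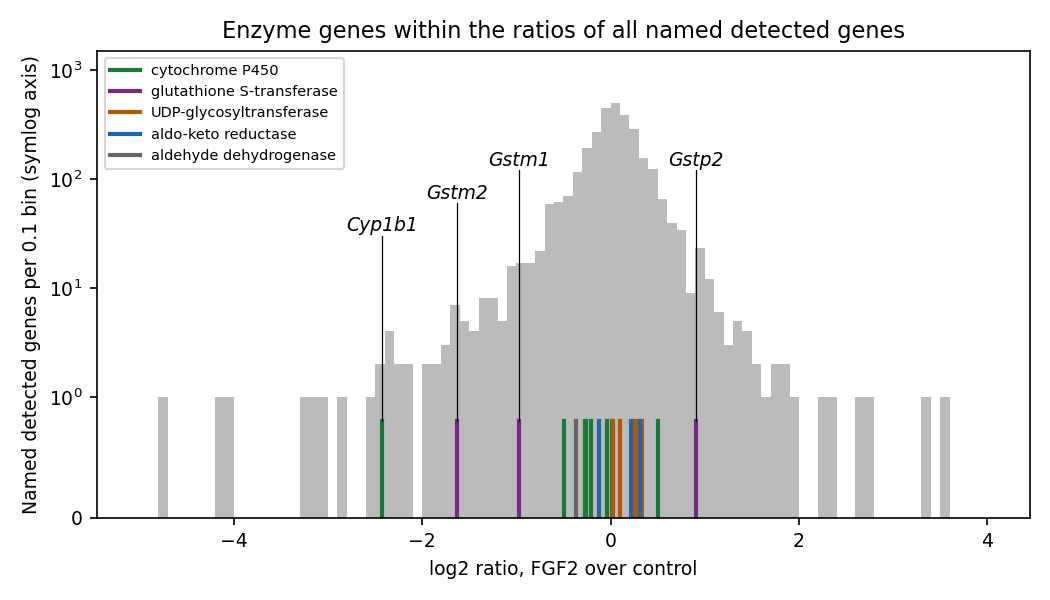
Number of named detected genes per bin of 0.1 (y axis, linear up to 1 and logarithmic above) by log2 ratio of FGF2 over control (x axis), with the 21 enzyme genes as coloured ticks. Most of the 21 lie in the central peak, and Cyp1b1, Gstm2, Gstm1 and Gstp2 are named.

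Genes that act with these enzymes were followed through gene lists. Of 14 AhR pathway genes 5 had a named probe and 4 were detected. Cyp1b1 was the 1 detected member at least 1.5-fold lower, against 6.79% of all named detected genes. The AhR chaperone genes Hsp90ab1 and Ptges3 had ratios of 0.52 ± 0.062 and 0.20 ± 0.061. Hsp90ab1 had 6655.9 with FGF2 and 5041.2 in control. Ptges3 had 582.7 with FGF2 and 601.9 in control, lower with FGF2 before normalization. The AhR partner Arnt was not detected, and Ahr, Ahrr, Tiparp, Nqo1 and Cyp1a1 had no named probe, so the receptor and these targets are not analysed here. Ugt1a6a, another usual AhR target and the fourth detected gene of the list, had the ratio of 0.26 given above. Without scaling that ratio was −0.0078, and its probe may read exons shared within the Ugt1a locus. The part of AhR in these values was not tested. Por, the P450 oxidoreductase, had 261.8 with FGF2 and 198.4 in control (0.55 ± 0.094) and was the single detected gene of 2 measured in the list of P450 electron partners and heme enzymes.

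Of 7 measured glutathione genes 5 were detected, with 1 at least 1.5-fold higher and 0 lower (median 0.36). Among all named detected genes 5.29% were higher and 6.79% lower by that much. The median is the value of Gss, with 228.0 with FGF2 and 175.4 in control. Gss was detected with FGF2 only, so its value is a bound. Prdx6, a peroxidase that draws on glutathione, had 1021.1 with FGF2 and 730.5 in control and was 1.67-fold higher (0.74 ± 0.086). Gclm, the modifier subunit of the enzyme that starts glutathione synthesis, had 395.6 with FGF2 and 326.2 in control (0.50 ± 0.081).

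By 1.5-fold or more 6.79% of all named detected genes were lower and 5.29% higher. Of 7 other measured phase I genes 3 were detected and 0 passed 1.5-fold (median 0.20). The brightest of them were Nqo2, a quinone reductase, at 352.7 with FGF2 and 293.8 in control (0.47 ± 0.077), and Dhrs4, a carbonyl reductase, at 287.7 with FGF2 and 285.3 in control (0.20 ± 0.074). Of 7 measured nuclear receptor genes 3 were detected, Vdr and Rxra in control only, so that their ratios are bounds. The retinoid X receptor gene Rxrb had 438.3 with FGF2 and 599.5 in control (−0.21 ± 0.078). The vitamin D receptor gene Vdr had 139.6 with FGF2, not well above background, and 300.2 in control, at least 1.47-fold lower. Of 5 measured genes of retinoid handling the retinol dehydrogenase gene Rdh10 was detected, with 209.8 with FGF2 and 283.6 in control (−0.27 ± 0.078).

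Markers were read beside these values. All 5 fibroblast markers with a named probe were detected. Their summed deposited signal was 15552 with FGF2 and 32716 in control, which does not measure the number of fibroblasts. Of these markers 3, the collagen genes Col1a1, Col1a2 and Col3a1, were at least 2-fold lower with FGF2. Among all named detected genes 2.6% were lower by that much. The fibroblast markers Dcn (−0.099) and S100a4 (0.14) lay within 1.5-fold. None of the 2 hepatocyte, 2 steroidogenic, 1 endothelial, 2 adipocyte and 4 pluripotent markers with a named probe was detected. The highest signal among them was 163.0 with FGF2 and 173.7 in control, under the lowest detected signal of each array. Hepatocyte markers summed to 289.0 with FGF2 and 304.9 in control. Of 6 leukocyte markers Ptprc, Cd68, Csf1r and Itgam were not detected. Lyz2 had 220.2 with FGF2 and 374.8 in control, and Cd53 had 318.7 with FGF2 and 176.7, not well above background, in control. The 6 summed to 1014.4 with FGF2 and 1109.3 in control. Of 4 epithelial markers, Krt18 (268.5 with FGF2, 191.1 in control) and Cldn4 (187.0 with FGF2, 202.4 in control) were detected, and the 4 summed to 691.0 with FGF2 and 642.9 in control. The part of these cell types in the differences of Cyp1b1, Gstm2, Gstm1 and Gstp2 was not tested.

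**Figure D5:**
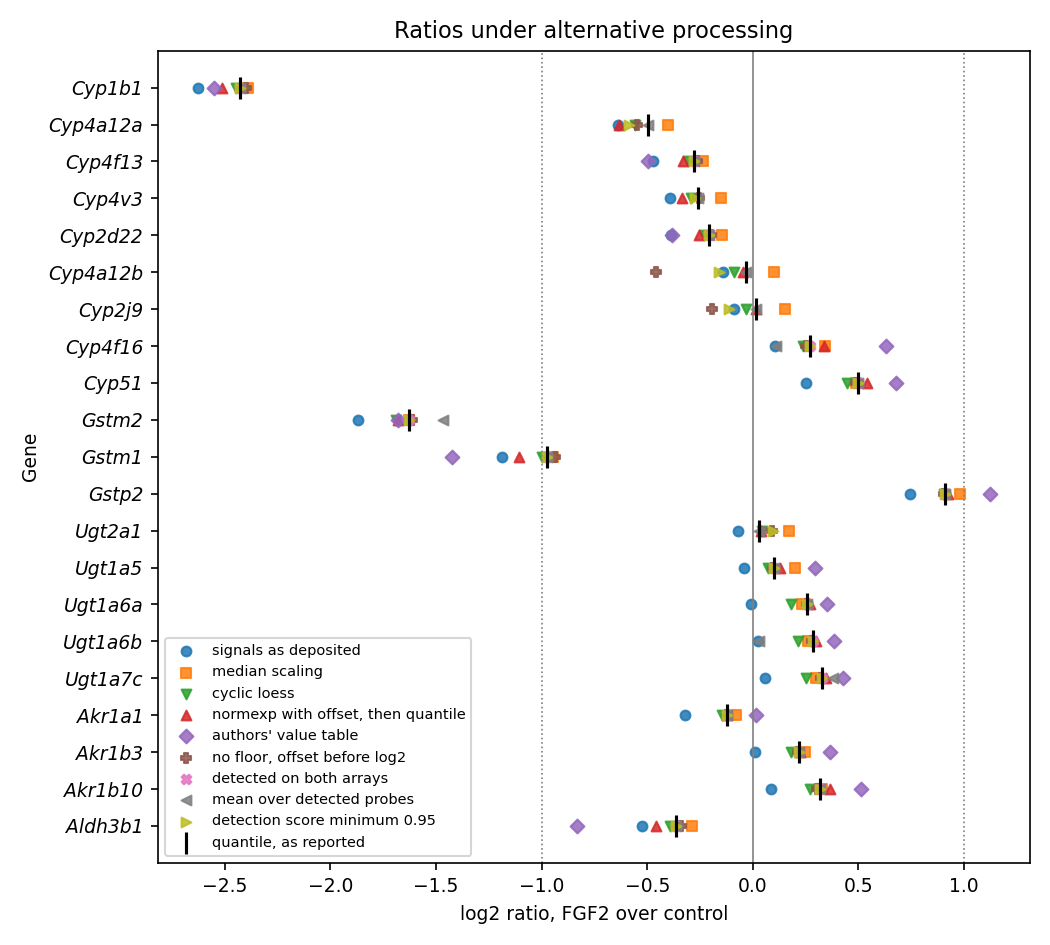
Log2 ratio of FGF2 over control (x axis) of the 21 genes under 9 alternative ways of processing (symbols), with dotted lines at 2-fold. Black bars are the ratios as reported. Genes not detected on both arrays have values under 7 of the 9. Cyp1b1 (−2.63 to −2.39) and Gstm2 (−1.87 to −1.47) stay past the lower line throughout, while Gstm1 (−1.42 to −0.94) falls on both sides of that line and Gstp2 (0.74 to 1.12) on both sides of the upper one.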

How the data were processed

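Total RNA (300 ng input, linear amplification with 6 h of in vitro transcription, per the labels' protocols) from 1 FGF2 and 1 control culture was measured on 1-colour Illumina bead arrays. The submitters' processing notes name BeadStudio 1.0. Its normalization was not given in the sources used here. The deposited array tables hold, per the file headers, an average signal intensity, a bead standard deviation and a detection score per probe. Bead numbers are not stated, so the deposited standard deviation may describe single beads or their mean. The authors' value table holds intensities that equal the signal less 135.4 in control and a line with slope 1.28 and background 132.6 for FGF2. They are linear and not centred per gene, with column medians of 276.8 for FGF2 and 262.1 for control. What set the slope is unknown.

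Identifiers starting scl0 or scl00 were read as NCBI gene numbers and named from the RefSeq table (GRCm38.p6). Of 9523 such identifiers 93.3% held a listed number, against 36.1% after adding 50. This named 8884 probes for 7409 genes, and 15160 probes stayed unnamed. The names rest on this reading and not on a probe annotation. 1 matching gene, and the list of other conjugating enzymes, cofactor supply and export, are not reported here. Signals were quantile normalized (Python 3.11.15, numpy 2.4.6), with loess and normexp alternatives from limma 3.58.1, and set to a floor of 191.7 for FGF2 and 188.45 for control before log2. For a gene detected on 1 array the fold is a bound: the detected array's value was divided by the other array's floor, or by that probe's own signal there if this was higher. The code for normalization and ratios was tested on simulated data with known folds, which says nothing about the spread between cultures. Every detected gene of the families is named, with full values at 1.5-fold or more. Of the lists, the genes past 1.5-fold and the 2 brightest are named. Ptges3, Rxra and Gss are named as well, as are undetected or unmeasured genes of the AhR list. These were chosen after their values were seen. All detected marker genes are named. The members and lists were chosen with earlier results of these data known.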

Additional observations from a re-analysis of the deposited data

How the results depend on the processing

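Under the 9 alternatives Cyp1b1 and Gstm2 stayed at least 2-fold lower, and no 2-fold difference changed direction. The count of genes at 2-fold lower was 2 as reported and 2 or 3 under the alternatives, where Gstm1 is the added gene. The count at 2-fold higher was 0 except in the authors' value table, where it was 1 (Gstp2). The median log2 ratio of the enzyme genes, 0.013 as reported, lies near 0 and took either sign. It was −0.089 with signals as deposited, 0.15 with median scaling, 0.32 over 16 genes in the authors' value table, −0.12 with no floor and an offset of 16, and 0.16 over the 16 genes detected on both arrays. The median of all named detected genes moved too, to −0.14 with signals as deposited and 0.13 in the authors' value table, against 0.028. Less that median, Cyp1b1 lay between −2.68 and −2.43, Gstm2 between −1.81 and −1.50, Gstm1 between −1.55 and −0.97 and Gstp2 between 0.87 and 0.996. Of all named genes past 2-fold, 36.1% were higher as reported, 19.9% with signals as deposited and 50.4% in the authors' value table. Of the 4 enzyme genes past 2-fold in those values, 1 was higher. Of 179 ratios of single genes under alternatives, 49 equal the reported value by construction, since the setting concerns detection or further probes. Of the other 130, 74 moved by less than the gene's bead error and 56 by more. A detection minimum of 0.95 added 6 enzyme genes with ratios between −0.062 and 0.061. No paired analysis was possible because each group had 1 array. For dim genes such as Cyp2j9, Cyp4a12b and Ugt2a1 the signal over background limits what can be said.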
